A study of Mus musculus with 2 samples.

Results

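Genes of sympathetic neurons and of the neural crest were followed in RNA from the aorta of mouse embryos at day 11. They were chosen by symbol, Th, Dbh, Phox2a, Hand1, Hand2, Sox10, Stmn2 and Map2, and all 8 were found among the 24062 genes of the count tables. The series holds 2 libraries, and both come from C57BL6 embryos that carry the Gata2Venus transgene, a fluorescent reporter of the blood transcription factor gene Gata2. Both are from CD31+ KITint cells, labelled haematopoietic progenitor cells, that were sorted on the reporter, 1 library without it (Gata2Venus-negative) and 1 with it (Gata2Venus-positive). The tables hold 10135400 and 9715131 counts in genes. How many embryos or cells went into a library is not given in the sources used here. A group is a single library, so differences carry no replicate check and no p-values. The 95% intervals cover counting error only, and reads amplified by PCR without molecular identifiers are not independent molecules. Since the samples are bulk RNA, fewer cells of a type and less RNA per cell cannot be told apart.

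Sympathetic neurons arise from neural crest cells that migrate to the dorsal aorta, where BMP signals switch on a set of transcription factors that includes Phox2a, Hand2, Insm1 and Gata3. These factors in turn switch on the enzymes that make noradrenaline. Th, tyrosine hydroxylase, converts tyrosine to L-DOPA, Ddc converts L-DOPA to dopamine, and Dbh, dopamine beta-hydroxylase, converts dopamine to noradrenaline. Sox10 marks migrating neural crest and its glial descendants. Stmn2, a stathmin of growing axons, and Map2, a microtubule-associated protein of dendrites, are used as neuronal genes. Hand1 and Hand2 also act outside neurons, in heart and lateral plate mesoderm. Catecholamines of the developing sympathetic nervous system have been linked to the emergence of blood stem cells in the region around the aorta.

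The promoters of Th, Dbh and Hand2 are shown because Th and Dbh encode steps of 1 pathway and only Dbh was counted, and because Hand2 encodes a regulator of that pathway. Each run is 300 bases, from 250 bases before the start annotated in RefSeq on GRCm38.p6 to 50 after it. It is written 5′ to 3′ on the gene's strand. The gene positions given below come from another annotation, GENCODE. For Th and Dbh that annotation begins the gene upstream of the run, so both runs lie inside the gene positions given. Of the 8 members, 5 had an entry in that table (Th, Dbh, Phox2a, Hand2 and Map2), and Hand1, Sox10 and Stmn2 had none. Capitals mark, on either strand, the E-box CANNTG bound by basic helix-loop-helix factors such as Hand2, the homeodomain core ATTA, the GATA motif AGATAA, and TGACG, a core of the cyclic AMP response element.
Th (chr7:142899946-142900245, minus strand): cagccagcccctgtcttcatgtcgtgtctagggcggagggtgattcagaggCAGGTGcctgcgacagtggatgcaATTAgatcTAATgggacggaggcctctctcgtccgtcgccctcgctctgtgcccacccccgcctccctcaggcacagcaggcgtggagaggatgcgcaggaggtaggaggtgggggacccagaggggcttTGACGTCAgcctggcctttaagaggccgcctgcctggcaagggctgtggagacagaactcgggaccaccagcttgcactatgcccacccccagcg
Dbh (chr2:27165257-27165556, plus strand): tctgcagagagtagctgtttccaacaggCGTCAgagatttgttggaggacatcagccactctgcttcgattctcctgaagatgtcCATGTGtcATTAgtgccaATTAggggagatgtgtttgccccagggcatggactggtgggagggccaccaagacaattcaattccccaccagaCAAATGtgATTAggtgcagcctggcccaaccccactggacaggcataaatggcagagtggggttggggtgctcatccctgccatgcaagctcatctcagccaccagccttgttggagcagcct
Hand2 (chr8:57320733-57321032, plus strand): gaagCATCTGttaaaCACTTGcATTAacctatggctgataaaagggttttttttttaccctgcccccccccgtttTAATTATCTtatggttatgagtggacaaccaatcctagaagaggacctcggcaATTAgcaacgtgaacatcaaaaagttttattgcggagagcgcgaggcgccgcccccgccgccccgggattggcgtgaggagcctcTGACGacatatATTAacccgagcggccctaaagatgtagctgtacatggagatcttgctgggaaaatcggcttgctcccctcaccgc
Positions are counted from the start, with −1 the base before it. The Th promoter held the full element TGACGTCA at −45, which only 1.79% of 32851 promoters of this length held and Dbh and Hand2 did not. Its capitals at that place cover 2 overlapping matches to TGACG. Dbh held 3 ATTA cores, at −157, −147 and −65, with E-boxes at −165 and −73, and 1 TGACG on the other strand at −222. In Hand2 there were 5 ATTA cores, E-boxes at −246 and −235, TGACG at −37 and the reverse complement of AGATAA at −172, which overlaps the cores at −175 and −173. Of all promoters, 72.3% held an E-box, 58.0% an ATTA core, 20.8% TGACG and 11.2% AGATAA. The Th promoter had 1 E-box, at −199, and 2 cores, at −175 and −167. These matches describe letters, not bound sites.

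The 8 genes went in different directions. Hand1 and Map2 were higher in the reporter-negative library, Stmn2 was seen in the reporter-positive library alone, Th and Sox10 had 0 counts in both, and Dbh, Hand2 and Phox2a did not pass the rule of size. By that rule a gene had to reach 10 CPM (counts scaled to library size) and 50 counts on its higher side, with the whole 95% interval of its ratio beyond 2-fold. A minimum of 20 counts over both libraries was met by 5 of the 8 members, and 2 of the 5 were higher in the reporter-negative and 1 in the reporter-positive library. Of all 12544 genes with as many counts, 12.6% were higher in the reporter-negative and 12.3% in the reporter-positive library. Among the 10381 genes that met the level part of the rule, these shares were 15.2% and 14.9%. With 5 genes the counts say little about the members as a group. When a coefficient of variation of 0.4 was assumed for each library, Stmn2 still passed, and Hand1 and Map2 did not.

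**Figure D1:**
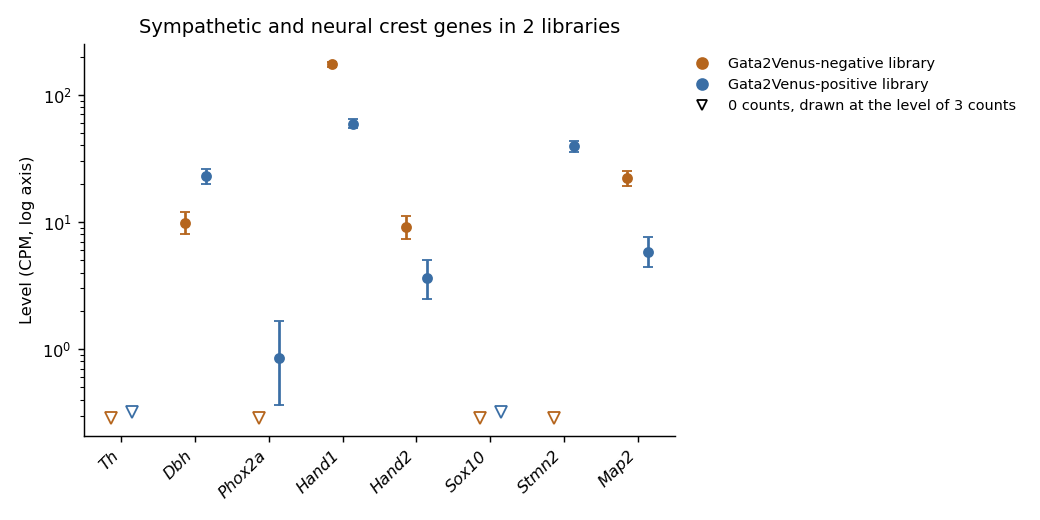
Levels of the 8 genes in CPM on a log axis, with exact 95% Poisson intervals of counting error, in the Gata2Venus-negative (brown) and Gata2Venus-positive (blue) library. Open triangles are genes with 0 counts, drawn at the level of 3 counts. Hand1 and Map2 lie higher in the reporter-negative library, Stmn2 is at 39.3 CPM in the reporter-positive library and at 0 in the reporter-negative, and Th and Sox10 are at 0 in both.

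Blood, endothelial and mesenchymal markers were found in both libraries, and most markers of neurons and glia were at 0 in both or in 1 of them. Of 6 haematopoietic markers, Itga2b, the CD41 integrin, was at 45.9 and 90.6 CPM and Ptprc, the CD45 phosphatase, at 18.6 and 52.7 CPM in the reporter-negative and reporter-positive library, whereas Spn (CD43) was at 0 in both and Gata1 and Gfi1b at 0 in the reporter-negative. Gata2 had 141 and 664 counts, the direction of the sort, Kit was at 199 and 60.7 CPM and Pecam1, which encodes CD31, at 537 and 489 CPM. Endothelial markers, 6 of 6 detected, summed to 1862 and 3282 CPM, and mesenchymal and smooth muscle markers, 7 of 7 detected, to 6270 and 3132 CPM. Macrophage markers, 5 of 5 detected, summed to 139 and 524 CPM, and 4 of 7 erythroid markers were detected in at least 1 library, with sums of 325 and 184 CPM. Of 7 neuronal markers 1 was detected in the reporter-negative and 4 in the reporter-positive library, with sums of 1.63 and 30.9 CPM, and Tubb3, Syt1 and Rbfox3 were at 0 in both. Of 6 glial and neural crest markers 5 were at 0 in both libraries, among them Sox10, Foxd3, Fabp7 and S100b.

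Th (chromosome 7, 142892752 to 142931128 on mm10, minus strand) had 0 counts in either library. A count of 0 allows up to 3 counts, which is 0.288 CPM in the reporter-negative and 0.317 CPM in the reporter-positive library. Sox10 (chromosome 15, 79154908 to 79165240, minus strand), the neural crest and glial factor, likewise had 0 counts in both, with the same limits. Neither gene overlaps another annotated gene. A count of 0 in both libraries was common, at 10209 of 24062 genes (42.4%). No fold was computed for either gene.

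Phox2a (chromosome 7, 101818313 to 101822726, plus strand), the homeodomain factor that helps switch on Th and Dbh, had 0 counts in the reporter-negative and 8 in the reporter-positive library. Its level there was 0.846 CPM (interval 0.365 to 1.67). With 0 set to 3 counts it was at least 2.94-fold lower in the reporter-negative library, and the exact 95% interval of the ratio reaches down to 1.88-fold. It had too few counts for the rule. Phox2a shares 95 bases, 4.67% of its exons, with Inppl1 on the opposite strand, a gene with 963 and 1025 counts, and the use of strand in counting is not given in the sources used here.

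Dbh (chromosome 2, 27165233 to 27183200, plus strand) was detected in both libraries although Th was not. It had 103 counts in the reporter-negative and 216 in the reporter-positive library, at 9.89 CPM (interval 8.08 to 12.0) and 22.8 CPM (interval 19.9 to 26.1). Dbh was thus 2.31-fold lower in the reporter-negative library (log2 ratio −1.21, interval −1.56 to −0.86, with values above 0 for more in the reporter-negative library), and since the interval crosses 2-fold it missed the rule. The 2 levels do not overlap in counting error. Of the 1680 other genes with a mean of 10 to 20 CPM, 24.4% were lower in the reporter-negative library by as much or more. No other annotated gene overlaps Dbh.

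Hand1 (chromosome 11, 57828705 to 57832818, minus strand), a basic helix-loop-helix factor of heart, lateral plate and extraembryonic mesoderm and of sympathetic neurons, was the most highly counted member. It had 1807 counts in the reporter-negative and 561 in the reporter-positive library, at 174 CPM (interval 166 to 182) and 59.3 CPM (interval 54.5 to 64.4). Its level was 2.93-fold higher in the reporter-negative library (log2 ratio 1.55, interval 1.41 to 1.69). Of the 1518 other genes with a mean of 100 to 200 CPM, 2.83% were higher in the reporter-negative library by as much or more, and 7.24% of the genes of this level were past the rule in that direction. The median absolute log2 ratio at this level was 0.44, beside 0.95 for genes of 10 to 20 CPM, over genes above 3 counts in both libraries. In the reporter-negative library 94.9% of all genes had fewer counts than Hand1, and in the reporter-positive library 82.9%.

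Hand2 (chromosome 8, 57320983 to 57324633, plus strand), whose product is required for the noradrenergic programme, had 95 and 34 counts. Its level was 9.12 CPM (interval 7.38 to 11.2) in the reporter-negative and 3.59 CPM (interval 2.49 to 5.02) in the reporter-positive library, 2.54-fold higher in the reporter-negative (log2 ratio 1.34, interval 0.76 to 1.95). It missed the 10 CPM minimum and its interval crosses 2-fold. The interval of its ratio holds that of Hand1, so the ratios of the 2 paralogues could not be told apart at this depth. Among the 3051 other genes with a mean of 1 to 10 CPM, 34.7% were as far or farther in this direction. The opposite-strand transcript gene Hand2os1 shares 461 bases, 19.6% of the exons of Hand2, and has no row of its own in the tables.

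**Figure D2:**
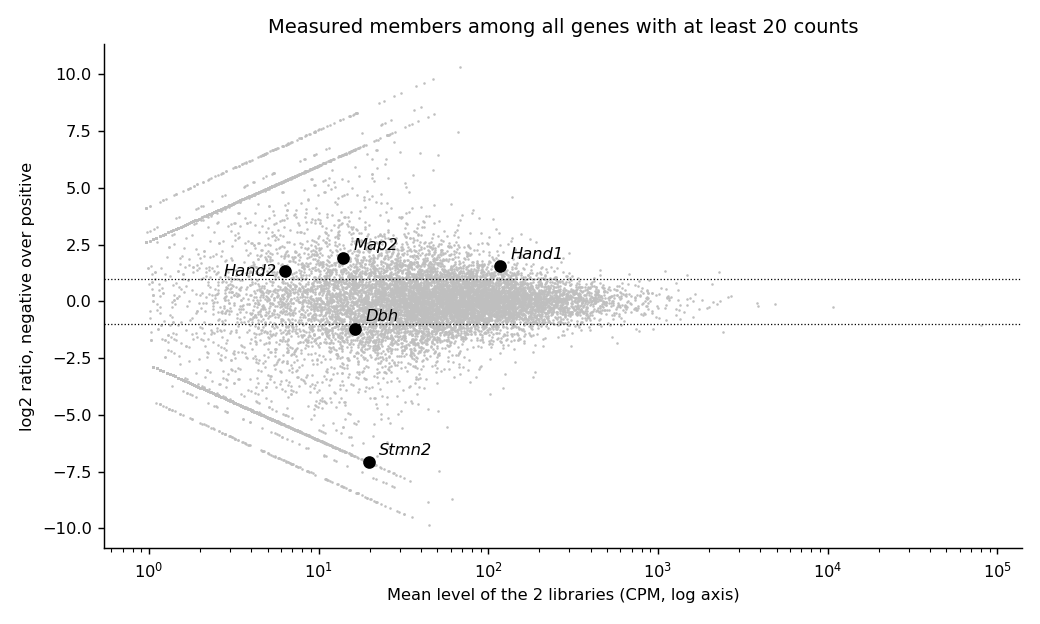
The log2 ratio of negative over positive against the mean level of the 2 libraries in CPM (log axis), for the 12544 genes with at least 20 counts (grey) and the 5 members among them (black), with 0 counts set to 3. Dotted lines mark 2-fold. Hand1, at a log2 ratio of 1.55, lies at a level where ratios spread less than around Map2, Dbh and Hand2, and Stmn2 lies on the lower line formed by genes with 0 counts in the reporter-negative library.

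Stmn2 (chromosome 3, 8509360 to 8561606, plus strand), which regulates microtubules in growth cones, had 0 counts in the reporter-negative and 372 in the reporter-positive library. The levels were 0 CPM, with a limit of 0.288 (interval up to 0.354), and 39.3 CPM (interval 35.4 to 43.5). This is at least 137-fold lower in the reporter-negative library with 0 set to 3 counts there (log2 ratio −7.09), and the exact 95% interval reaches down to 110-fold (log2 ratio −6.79). Of the 1680 other genes with a mean of 10 to 20 CPM, 1.73% were as far or farther in this direction. Of all 1681 genes of that level 22.2% were past the rule in it, 5.06% had 0 counts in the reporter-negative library and 4.34% in the reporter-positive. Over all genes, 279 had 0 counts in the reporter-negative and at least 100 in the reporter-positive library, and 297 had the reverse.

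Map2 (chromosome 1, 66175273 to 66442583, plus strand) went the other way from Stmn2. It had 229 and 55 counts, at 22.0 CPM (interval 19.2 to 25.04) in the reporter-negative and 5.82 CPM (interval 4.38 to 7.57) in the reporter-positive library. Its level was 3.78-fold higher in the reporter-negative library (log2 ratio 1.92, interval 1.49 to 2.37). Among the 1680 other genes of 10 to 20 CPM, 15.5% were as far or farther in this direction, and 20.9% of all 1681 genes of that level were past the rule in it. An antisense gene, Gm10558, shares 124 bases with Map2, 0.754% of its exons.

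Per length of annotated exon, Hand1 stood far above the other members in both libraries. In the reporter-negative library its level was 86.9 CPM per kilobase (interval 82.9 to 91.0), followed by Hand2 at 3.88 (interval 3.14 to 4.74), Dbh at 3.68 (interval 2.9997 to 4.46) and Map2 at 1.34 CPM per kilobase (interval 1.17 to 1.52). Hand2 and Dbh do not differ there beyond counting error. In the reporter-positive library Hand1 was at 29.7 CPM per kilobase (interval 27.3 to 32.3). Below it came Dbh at 8.48 (interval 7.39 to 9.69) and Stmn2 at 7.02 CPM per kilobase (interval 6.33 to 7.77), whose intervals overlap. Hand2 at 1.53 CPM per kilobase (interval 1.06 to 2.14) followed, and Phox2a at 0.416 (interval 0.179 to 0.819) and Map2 at 0.354 CPM per kilobase (interval 0.266 to 0.460) overlapped each other. Exons of all annotated transcripts were merged for these lengths, which for Map2 come to 16.4 kilobases, so its level per length is a low estimate for cells that use a short transcript.

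Among other genes of the sympathetic programme, Isl1 and Gata3 passed the rule on opposite sides. Of 14 transcription factors of the lineage 10 were measured. By the rule 2 were higher in the reporter-negative and 2 in the reporter-positive library, beside 12.6% and 12.3% of all genes measured. The other 6 missed it, and 10 genes say little about the list. The median log2 ratio of the 10 was 1.02, beside −0.01 over all genes measured. Isl1, a LIM homeodomain factor of sympathetic and motor neurons and of heart progenitors, had 933 and 147 counts and was 5.77-fold higher in the reporter-negative library (log2 ratio 2.53, interval 2.28 to 2.79). Gata3, which is needed for Th expression in sympathetic cells and is also a blood and lymphoid factor, had 46 and 376 counts and was 8.998-fold lower (log2 ratio −3.17, interval −3.64 to −2.73). The other 2 past the rule were Gata2 and the member Hand1, which also belongs to this list. Gata2 was part of the sort, so its direction is not a finding. Sox11, a factor of immature neurons and mesenchyme, had 2749 and 1212 counts and missed the rule (log2 ratio 1.04, interval 0.94 to 1.14). Insm1, named after its values were seen, had 0 counts in both libraries.

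Genes that make, store and break down catecholamines were found in part. Of 19 genes 14 were measured. By the rule 2 were higher in the reporter-negative and 3 in the reporter-positive library, beside 12.6% and 12.3% of all genes measured. The other 9 missed it, and the median log2 ratio of the 14 was −0.06. Th, Pnmt (which makes adrenaline), Chga, Scg2 and the noradrenaline transporter gene Slc6a2 had 0 counts in both libraries. Ddc, named after its values were seen, had 401 and 242 counts (log2 ratio 0.59), so of the 3 steps from tyrosine to noradrenaline the last 2 were counted in both libraries and the first in neither. The vesicle transporter genes were on opposite sides. Slc18a1 had 122 and 0 counts, at least 36.9-fold higher in the reporter-negative library with 0 set to 3 counts (exact interval down to 29.6-fold). Slc18a2 had 218 and 1027, 5.19-fold lower in that library (log2 ratio −2.37, interval −2.59 to −2.16). Chgb, a granin of secretory vesicles, had 0 and 117 counts, at least 42.9-fold lower by the same setting (exact interval down to 34.4-fold). Cyb561, which regenerates ascorbate for Dbh in vesicles, had 1 and 98 (log2 ratio −6.75, interval −12.07 to −4.24). Qdpr, which recycles the cofactor of Th, was at 171 and 147 CPM and missed the rule. Maoa, a monoamine oxidase named after its values were seen, was the other gene higher in the reporter-negative library (1139 and 397 counts, 2.61-fold). Slc18a2 is also a gene of mast cells, and many genes of this list are used outside neurons.

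**Figure D3:**
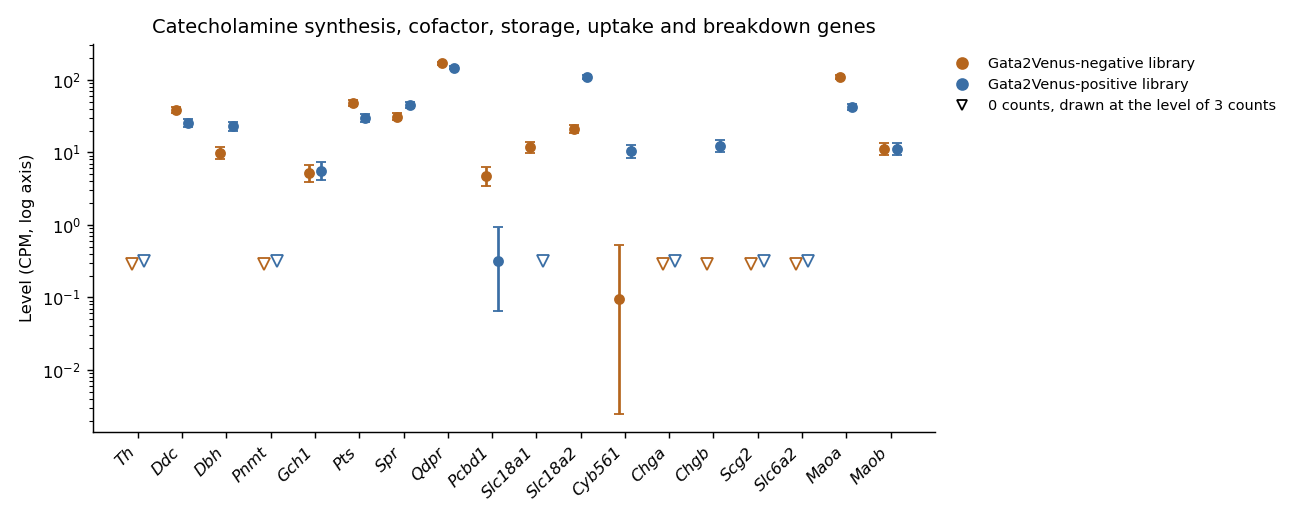
Levels in CPM (log axis) of genes of catecholamine synthesis, cofactor supply, storage, uptake and breakdown, with exact 95% Poisson intervals, in the reporter-negative (brown) and positive (blue) library. Open triangles mark 0 counts, drawn at 3 counts. Th, Pnmt, Chga, Scg2 and Slc6a2 are at 0 in both libraries, and Ddc and Dbh are counted in both.

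Of 16 neural crest specifier genes 8 were measured, 4 were higher in the reporter-negative library, 0 were higher in the reporter-positive and 4 missed the rule, with a median log2 ratio of 1.43. Over all genes measured 12.6% were higher in the reporter-negative and 12.3% in the reporter-positive library, so 0 of 8 on the reporter-positive side is near the background. Named after their values were seen, the 6 with 0 counts in both libraries were Sox10, Foxd3, Tfap2a, Pax3, Pax7 and Zic1. The 4 that passed were Crabp1, a retinoic acid binding protein (983 and 78 counts, 11.4-fold), Snai2, a repressor of epithelial genes (632 and 145 counts, 3.96-fold), Msx1 (147 and 47 counts, 2.84-fold) and Sox9 (303 and 108 counts, 2.55-fold). All 4 are also expressed in mesenchyme. Id2, at 294 and 217 CPM, and Ets1, at 147 and 226 CPM, were the most abundant and missed the rule. Sox9 and Sox8 are the paralogues of Sox10, and Sox8 had 14 and 0 counts.

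Mesenchymal genes were higher in the same library as Hand1 and these 4 genes. Of the 7 mesenchymal and smooth muscle markers 6 were higher in the reporter-negative library and 0 in the reporter-positive, among them Pdgfra at 275 and 35.2 CPM and Acta2 at 659 and 252 CPM. The most abundant were Col3a1, at 3249 and 1310 CPM and past the rule, and Col1a1, at 1837 and 1453 CPM, which missed it. The lateral plate and splanchnic mesoderm list, which holds Hand1 and Hand2, had 15 of 17 genes measured, with a median log2 ratio of 1.34. Of the 15, 6 were higher in the reporter-negative and 2 in the reporter-positive library, beside 12.6% and 12.3% of all genes measured. Gata4 had 318 counts and 1 (log2 ratio 8.17, interval 5.69 to 13.48), Prrx1, a limb and mesenchyme factor, was 9.40-fold higher in the reporter-negative library (714 and 69 counts), and Tbx3 was 15.0-fold lower (41 and 559 counts). Besides Hand1 and Isl1, the others past the rule, named after their values were seen, were Foxf1 (5.08-fold) and Gata5 (4.97-fold) on the reporter-negative side and Gata6 (2.65-fold) on the reporter-positive side. Mef2c was at 170 and 149 CPM. The cells of both libraries were sorted as CD31+ KITint, and the part of mesenchymal cells in the Hand1 difference was not tested.

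Of 15 Schwann cell precursor and glial genes 9 were measured, with a median log2 ratio of 1.39. By the rule 2 were higher in the reporter-negative library and 0 in the reporter-positive, beside 12.6% and 12.3% of all genes measured. The other 7 missed it. Ngfr, the low-affinity neurotrophin receptor that also marks mesenchyme, had 359 and 59 counts (5.53-fold, log2 ratio 2.47, interval 2.07 to 2.89), and Mbp had 531 and 102 counts (4.73-fold). Mbp is a myelin gene whose locus also gives transcripts in blood cells. Pmp22, at 365 and 331 CPM, and the endothelin receptor gene Ednrb, at 128 and 162 CPM, were the most abundant and missed the rule.

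**Figure D4:**
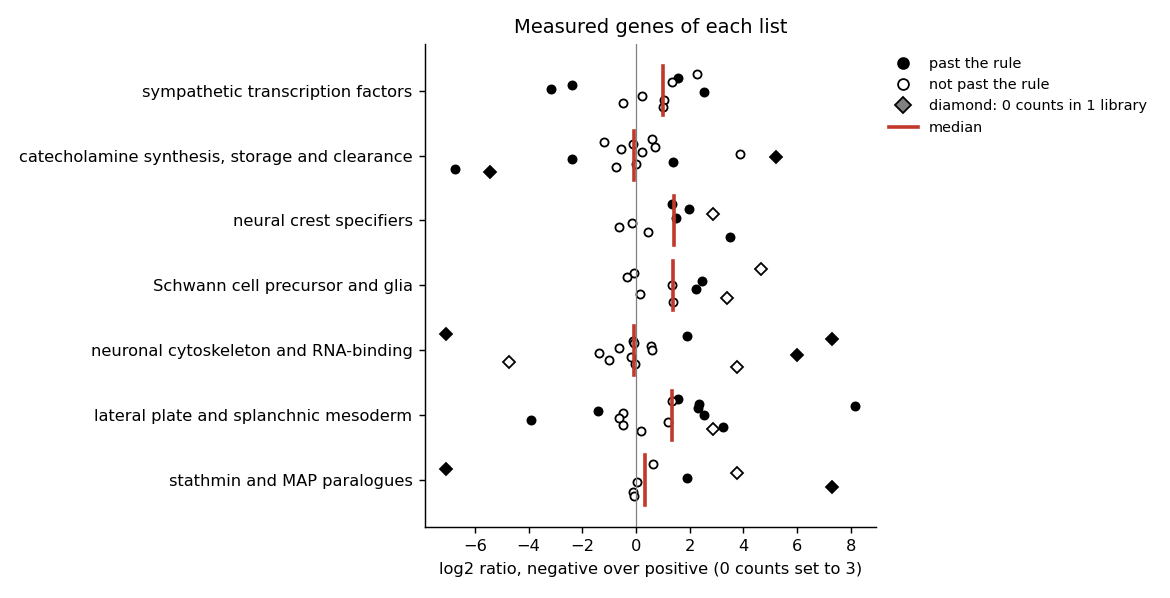
Log2 ratio of negative over positive for each measured gene of 7 gene lists, with 0 counts set to 3, and the median of each list (red line). Filled symbols are past the rule of size and diamonds had 0 counts in 1 library. The neuronal list spans −7.09 to 7.31.

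Several neuronal genes were counted in 1 library alone, on either side, as were many genes of low level. Of all 12544 genes measured, 839 had 0 counts in the reporter-negative and 714 in the reporter-positive library. The shares were 24.3% and 20.2% at a mean of 1 to 10 CPM, and 0.425% and 0.523% at 20 to 50 CPM. Of 23 genes of the neuronal cytoskeleton and of RNA-binding proteins, 15 were measured, 3 were higher in the reporter-negative and 1, Stmn2, in the reporter-positive library, and 11 missed the rule, with a median log2 ratio of −0.09. Over all genes measured, 12.6% passed on the reporter-negative and 12.3% on the reporter-positive side, and 15 genes say little about the list. Map1a, a microtubule-associated protein of mature neurons, had 524 and 0 counts. With 0 set to 3 counts it was at least 159-fold higher in the reporter-negative library (exact interval down to 129-fold). Ina, the neuronal intermediate filament internexin, had 211 and 0 counts, at least 63.9-fold higher by the same setting (exact interval down to 51.5-fold). Elavl4, a neuronal RNA-binding protein gene, lay on the side of Stmn2 with 0 and 72 counts, and so did Elavl3 (0 and 19) and the peripheral neuron filament gene Prph (0 and 18), the last 2 named after their values were seen. None of the 3 reached 10 CPM. The 5 genes of the list with 0 counts in both libraries were Tubb3, Dcx, Nefh, Elavl2 and Stmn3. Others were counted in both and missed the rule, among them Gap43 (692 and 972 counts), Nefl (338 and 205), Nefm (72 and 171) and Tubb2b (388 and 239). All of these were also named after their values were seen. The most abundant of the list were Map1b, at 298 and 324 CPM, and Crmp1, at 139 and 278 CPM, neither past the rule. The part of neurons in the Stmn2 difference was not tested, and the sum of the 7 neuronal markers was 1.63 CPM in the reporter-negative and 30.9 CPM in the reporter-positive library. Snap25 alone gave 19.3 of the 30.9 CPM, and Map1a, Ina and Map2, which were higher in the reporter-negative library, are not among the 7.

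**Figure D5:**
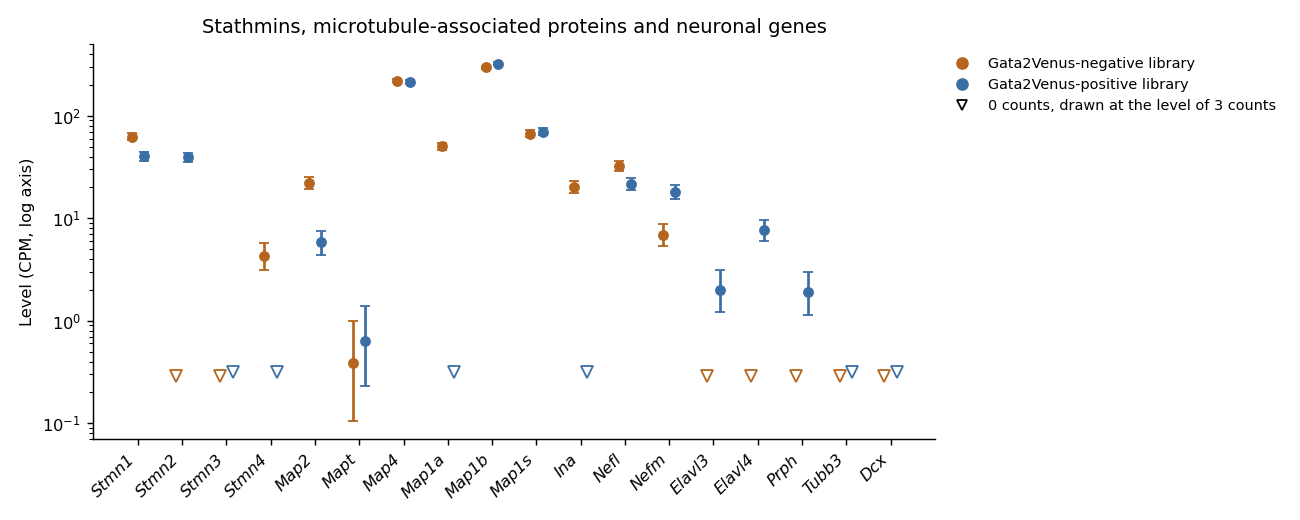
Levels in CPM (log axis) of stathmins, microtubule-associated proteins and other neuronal genes with exact 95% Poisson intervals, in the reporter-negative (brown) and positive (blue) library, with open triangles for 0 counts drawn at 3 counts. Stmn2, Elavl3, Elavl4 and Prph are counted in the reporter-positive library alone, Map1a, Ina and Stmn4 in the reporter-negative library alone, and Map4 and Map1s lie at nearly the same level in both.

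Members of the stathmin and microtubule-associated protein families lay on either side. Stmn1, the stathmin of dividing cells, had 650 and 380 counts (log2 ratio 0.64), Stmn4 had 45 and 0, and Stmn3 had 0 in both, none of them past the rule. Map4, the microtubule-associated protein of non-neuronal cells, was at 221 and 216 CPM (log2 ratio 0.03). Mapt, which encodes tau, had 4 and 6 counts. Of 8 measured stathmin and MAP genes, 2 were higher in the reporter-negative library (Map1a and Map2) and 1 in the reporter-positive (Stmn2). Of all genes measured, 12.6% and 12.3% were past the rule in these directions. The median log2 ratio of the 8 was 0.33. A list of Hand1, Hand2, Phox2a, Sox10 and their paralogues had 6 of 10 genes measured, with the members Hand1 and Hand2 among the 6. Besides Hand1, Sox9 and the mesenchymal factor gene Twist2 (398 and 118 counts, 3.06-fold) were higher in the reporter-negative library. The other 3 missed the rule. Ratios ran from a log2 of 1.34, that of Hand2 itself, to 2.86. The last is a bound for Twist1, named after its values were seen, with 24 and 0 counts and 0 set to 3.

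Receptors for catecholamines were mostly at 0. Of 14 adrenergic and dopamine receptor genes 9 had 0 counts in both libraries and 5 were measured, and 0 were past the rule. Adrb3 had 64 and 153 counts (log2 ratio −1.40). The median log2 ratio of the 5 was 2.74, and they ranged from −1.40 to 4.70.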

How the data were processed

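RNA was prepared with the mirVana kit and SMARTER cDNA synthesis, per the labels' protocols, and 1 Illumina library was made per group. The submitters' processing notes name TopHat, Cufflinks and HTSeq and the build mm10, and tool versions, annotation and strand setting were not found there. The authors deposited raw counts, whole numbers for each gene symbol without normalization. The 5 rows of reads in no gene were left out, of which the row of non-unique alignments held 45.5% of the reporter-negative and 48.2% of the reporter-positive table, so genes with near-identical copies are uncertain.

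CPM were scaled by TMM (edgeR 4.0.16, R 4.3.3; factors 1.03 and 0.974). Ratios have exact Clopper-Pearson intervals and levels exact Poisson intervals (95%, scipy 1.17.1). With 0 counts in 1 library, 3 counts were used for a bound, also in list medians, and the exact interval of such a ratio reaches closer to equal expression than the bound. Genes seen once or a few times keep their own ratio. Medians are over genes with at least 20 counts. No test between conditions was possible. Coordinates, exon lengths and overlaps come from GENCODE vM21 (GRCm38, the same assembly as mm10), to which 22750 genes (94.5%) matched by symbol. Adgre1 and Drd1 were found under older symbols.

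The members and lists were chosen with earlier results of these data known. Named by rule were all members, Gata2, Kit and Pecam1, and of each list up to 4 genes past the rule with the interval farthest from equal expression and the 2 most abundant. Alternatives were total-count, DESeq2 1.42.0 and trimmed scaling, other filters, folds and intervals, 0.5 added counts, and list members with at least 100 counts. The steps were tested on simulated data. Some genes that the rule names are left out of the text.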

Additional observations from a re-analysis of the deposited data

How the results depend on the processing

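No paired analysis was possible because each group held 1 library, and leaving a library out leaves no comparison. Hand1 and Map2 on the reporter-negative side and Stmn2 on the reporter-positive side were past the rule under total-count scaling, DESeq2 size factors, scaling without the 100 most abundant genes, a filter of 1 CPM and 10 counts, and no filter on the level. Total-count scaling moved the median log2 ratio of all measured genes by 0.08 and the other scalings by less. With a minimum of 50 CPM, 1 member (Hand1) remained on the reporter-negative side and 0 on the reporter-positive side, with 629 and 545 of all genes. With the interval beyond 4-fold, 0 members were on the reporter-negative side and 1 (Stmn2) on the reporter-positive side, with 744 and 751 of all genes, beside 1582 and 1545 by the rule itself. Assuming a coefficient of variation of 0.4 for each library likewise left 0 and 1 members (Stmn2), with 638 and 682 of all genes. A 2-fold ratio without the interval added Dbh, for 2 members on the reporter-positive side. On that side 2484 genes passed with 1 CPM and 10 counts and 2503 with no filter. Leaving out genes with 3 or fewer counts in 1 library, an alternative chosen after seeing the data, removed Stmn2 and left 0 members on the reporter-positive side. Over catecholamine receptors with at least 100 counts, which is Adrb3 alone, the median log2 ratio was −1.40 in place of 2.74, because fewer genes entered. Depth limits Th, Sox10 and Phox2a, and no replicate spread was measured.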

Other observations

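Receptors and ligands that support sympathetic neurons and their precursors were measured for 12 of 20 genes. Of these 3 were higher in the reporter-negative library and 0 in the reporter-positive, beside 12.6% and 12.3% of all genes measured. The other 9 missed the rule, and the median log2 ratio of the 12 was 1.17. Erbb2, a partner of neuregulin receptors, had 1537 and 245 counts (5.70-fold, log2 ratio 2.51, interval 2.32 to 2.71), and Edn3, the ligand of Ednrb in crest-derived cells, had 571 and 206 (2.52-fold, log2 ratio 1.33, interval 1.10 to 1.57). Ngfr was the third. Named after their values were seen, Ret, the receptor for GDNF family ligands, had 201 and 75 counts, and its co-receptor genes Gfra3 and Gfra2 had 170 and 61, and 0 and 91. The neurotrophin receptor gene Ntrk3 had 0 counts in both libraries.

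Of 14 chromaffin, neuropeptide and synaptic genes 4 were measured, and the 2 past the rule, Chgb and Snap25, were higher in the reporter-positive library. Over all genes measured 12.3% passed on that side and 12.6% on the other, and 4 genes say little about the list. Snap25, a SNARE protein of synaptic vesicle release, had 17 and 183 counts (11.9-fold lower in the reporter-negative library, log2 ratio −3.57, interval −4.38 to −2.85). Syp, synaptophysin, had 98 and 80 counts, and Gal, named after its values were seen, had 36 and 0. Both had ratios on the reporter-negative side and missed the rule. Of this list 9 genes had 0 counts in both libraries, among them Npy, Penk and Syt1, named after their values were seen.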
